A study of Homo sapiens with 12 samples.

Results

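The cornified envelope is the cross-linked protein shell that replaces the plasma membrane of a keratinocyte at the surface of the epidermis. The genes described here encode 6 of its parts: the small proline-rich proteins SPRR2D and SPRR1B, involucrin (IVL), transglutaminase 1 (TGM1), periplakin (PPL) and envoplakin (EVPL). They were taken by symbol from a deposited table of 16271 genes, and all 6 passed the filter on low counts. RNA was sequenced from HaCaT, a spontaneously immortalised human keratinocyte line, either wild type or with a knockout (KO) of VDR, the nuclear receptor through which 1,25(OH)2D3, the active form of vitamin D, acts on genes. Cells of each genotype were left untreated or received 1,25(OH)2D3 for 8 h, which gave 4 groups of 3 libraries each: wild type untreated, wild type treated, VDR KO untreated and VDR KO treated. All groups share the HaCaT background and culture in DMEM with fetal bovine serum. The labels give no dose or vehicle, do not say how the knockout was made or whether it is 1 clone, and do not say that replicates came from separate cultures. The p-values therefore measure only the spread between these libraries, which may be technical, and the genotype cannot be told apart from differences between the cell stocks.

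As background, envelope assembly begins when envoplakin and periplakin, large plakin-family proteins that bind each other and link desmosomes and keratin filaments to the membrane, are deposited beneath the plasma membrane together with involucrin. Transglutaminase 1, a membrane-anchored enzyme, then joins glutamine to lysine side chains of these proteins, and small proline-rich proteins act as short cross-bridges between larger precursors. IVL and the SPRR genes lie in the epidermal differentiation complex, a cluster of genes for late keratinocyte differentiation, and AP-1 sites upstream of IVL and SPRR1B are known from work on their promoters.

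On GRCh38, with GENCODE gene models, IVL lies at chr1:152908545-152911886 (plus strand), SPRR1B at chr1:153031202-153032900 (plus) and SPRR2D at chr1:153039725-153041931 (minus). The other 3 are outside that cluster: TGM1 at chr14:24249114-24264432, PPL at chr16:4882507-4960741 and EVPL at chr17:76004502-76027452, all on the minus strand. All 6 are annotated as protein coding, and the values below are counts per gene, not per transcript. No source used here says whether reads outside exons were counted. RefSeq sequences of the start region were at hand for SPRR1B and IVL, 2 of the 6 genes. They are shown because these are precursor genes of 1 cluster that were both lower in the knockout. Each covers 250 bases before to 50 bases after the annotated start on GRCh38.p14 (SPRR1B chr1:153030953-153031252, IVL chr1:152908296-152908595, both plus strand, 5′ to 3′), with capitals on matches to the AP-1 motif TGANTCA.
SPRR1B: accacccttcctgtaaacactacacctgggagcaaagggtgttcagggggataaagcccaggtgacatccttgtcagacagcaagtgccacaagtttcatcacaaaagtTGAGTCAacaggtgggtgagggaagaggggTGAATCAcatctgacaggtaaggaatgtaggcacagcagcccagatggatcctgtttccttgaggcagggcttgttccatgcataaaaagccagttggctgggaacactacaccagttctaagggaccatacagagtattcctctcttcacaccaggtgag
IVL: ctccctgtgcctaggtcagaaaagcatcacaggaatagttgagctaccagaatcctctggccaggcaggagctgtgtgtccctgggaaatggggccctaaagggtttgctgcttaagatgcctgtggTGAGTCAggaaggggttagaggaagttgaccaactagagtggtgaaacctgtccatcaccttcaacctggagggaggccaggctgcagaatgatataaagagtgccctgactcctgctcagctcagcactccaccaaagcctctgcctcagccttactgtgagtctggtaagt
The search for TGANTCA covered both strands and found 2 matches in SPRR1B, starting 141 and 111 bases before the start, and 1 in IVL, 123 bases before it. This motif occurs in 7.71% of 35116 promoter windows of the same length. TATAAA was found in IVL, 30 bases before the start, and not in SPRR1B, and 11.5% of windows hold it. The GC box GGGCGG, present in 45.0% of windows, had no match in either. The ETS-type motif AGGAAG, present in 33.6% of windows, had 2 matches in IVL and 1 in SPRR1B, and one of those in IVL overlaps the last base of its AP-1 match. The direct-repeat motif of VDR with RXR, found in 0.0740% of windows, had no match in either sequence. These matches describe the letters in the window and nothing about binding.

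The libraries held 11485031 to 15992792 counts, and values below are counts per 1000000 after TMM scaling (CPM). Unless another test is named, adjusted p-values are from edgeR's quasi-likelihood test over the 14676 genes that passed the low-count filter, with Benjamini-Hochberg adjustment, and a gene is said to rise or fall when its adjusted p is below 0.05. As a check of treatment, CYP24A1, the vitamin D catabolic enzyme and a direct VDR target, went from 48.0 to 1676 CPM in wild type cells and from 16.9 to 12.2 CPM in the knockout (adjusted p = 0.106). VDR RNA itself was still counted in the knockout (77.6 CPM untreated, against 103.3 in wild type), so its level does not show the lesion. The summed level of 8 keratinocyte markers was 2922 to 3374 CPM in wild type libraries and 1414 to 1759 CPM in knockout libraries. Of the markers of other cells, 3 of 6 for fibroblasts (COL1A1, COL3A1, LUM; 1.96 to 20.6 CPM in sum), CDH5 of 4 for endothelium (2.62 to 8.19 CPM), CD68 of 5 for leukocytes (7.10 to 15.1 CPM in wild type and 3.56 to 5.40 CPM in knockout libraries) and PMEL of 4 for melanocytes (0.515 to 1.56 CPM) had values. On a principal component analysis the first component, with 75.0% of the variance, separated the genotypes, and wild type untreated replicate 3 stood apart at -32.5 against -54.3 and -55.7 for the other replicates of its group. That library was the lowest of its group for 5 of the 6 envelope genes. Fits without it are given where a call on these 6 changed, and for some results of related genes.

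**Figure D1:**
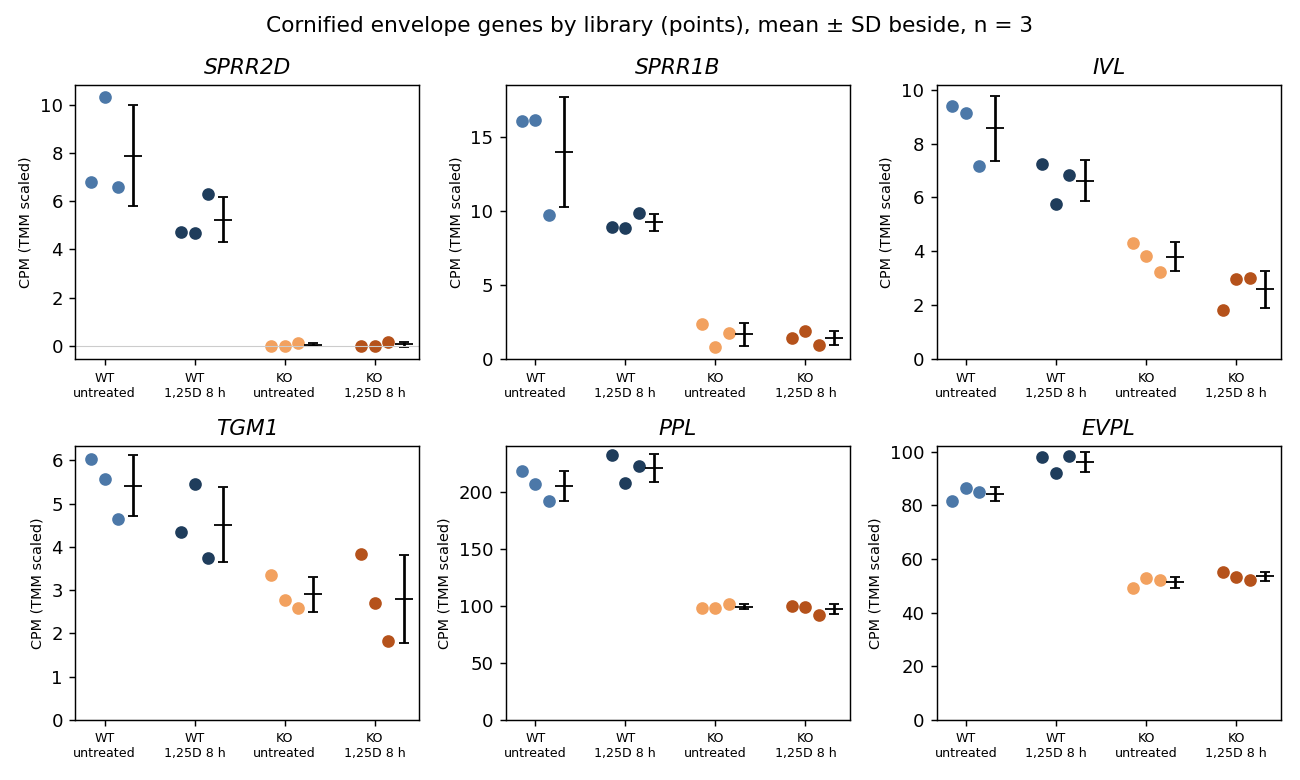
Level of each envelope gene in every library (CPM after TMM scaling, one panel per gene, axis from 0), for wild type (WT, blue) and VDR knockout (KO, orange) cells, untreated or after 8 h of 1,25(OH)2D3 (1,25D); points are libraries and the bar beside them is mean ± SD, n = 3. Knockout libraries lie below wild type libraries in every panel except TGM1, where 1 treated knockout library, at 3.84 CPM, is above the lowest treated wild type library, at 3.75 CPM.

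All 6 envelope genes were lower in VDR knockout than in wild type cells, both without and with 1,25(OH)2D3. The difference was widest for the SPRR genes, whose RNA was nearly absent (SPRR2D) or several-fold lower (SPRR1B), and narrowest for the plakins and TGM1. In untreated cells 6 of 6 fell, where 34.2% of all genes tested fell and 35.5% rose, and their median log2 difference was -1.11 against 0.01 over all genes. In treated cells 6 of 6 fell, where 37.4% of all genes did and 38.4% rose, with a median of -1.27 against 0.02. The libraries of the compared groups did not overlap for 6 of 6 in untreated cells, all lower in the knockout, a pattern seen for 33.5% of all genes tested, and for 5 of 6 in treated cells, where 39.8% of all genes showed it. In bulk RNA, fewer cells expressing a gene and less RNA per cell cannot be told apart. The keratinocyte marker sum and CD68 were lower in the knockout too, and their part in these differences was not tested.

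SPRR2D, a cross-bridging precursor, showed the widest difference. Its level was 6.81, 10.3 and 6.59 CPM in untreated wild type replicates 1 to 3 and 4.73, 4.68 and 6.31 CPM in the treated ones. In the knockout it had 0 counts in 4 of 6 libraries and 2 counts in each of the other two, replicate 3 of either treatment (0.120 and 0.158 CPM). No wild type library came near these values. The group sums were 270 counts in untreated wild type against 2 in untreated knockout, a 179-fold ratio per unit of library size with an exact 95% interval from 49.0 to 1483, and 204 against 2 in treated cells, a 100.1-fold ratio (27.4 to 832). Those intervals cover counting error only. The fitted log2 differences were -7.21 ± 0.50 (SE, adjusted p = 2.91e-09) and -6.40 ± 0.54 (adjusted p = 1.57e-08), and with so few counts their size depends on the fit's prior. A library with 0 counts allows up to 3 counts by counting error.

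SPRR1B, a second small proline-rich precursor, fell too but stayed detectable. It stood at 16.1, 16.2 and 9.72 CPM in wild type replicates 1 to 3 without hormone and at 8.91, 8.89 and 9.91 CPM with it. The knockout libraries held 2.38, 0.826 and 1.74 CPM untreated and 1.43, 1.89 and 0.950 CPM treated. The lowest wild type library was thus several times above the highest knockout library. The mean was 8.49-fold lower in untreated knockout cells (14.0 ± 3.71 against 1.65 ± 0.783 CPM, SD, n = 3; log2 difference -3.05 ± 0.28 SE, adjusted p = 2.64e-07) and 6.49-fold lower in treated ones (-2.69 ± 0.31, adjusted p = 1.43e-06).

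IVL encodes the rod-shaped scaffold precursor to which other envelope proteins and lipids are attached. Its level in wild type cells was 9.40, 9.14 and 7.18 CPM untreated and 7.25, 5.77 and 6.83 CPM treated. In the knockout it was 4.32, 3.83 and 3.24 CPM untreated and 1.81, 2.95 and 3.01 CPM treated. Every wild type library was above every knockout library. IVL was 2.26-fold lower in untreated knockout cells (-1.17 ± 0.18, adjusted p = 2.55e-05) and 2.56-fold lower in treated ones (-1.36 ± 0.20, adjusted p = 9.48e-06).

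TGM1, the cross-linking enzyme, had the lowest level per length of the 6 in wild type cells and the least separated groups. Untreated wild type replicates held 6.03, 5.57 and 4.65 CPM and treated ones 4.34, 5.46 and 3.75 CPM. Untreated knockout replicates held 3.35, 2.78 and 2.58 CPM and treated ones 3.84, 2.71 and 1.82 CPM. The untreated groups did not overlap and the treated groups did, by replicate 1 of the treated knockout. TGM1 was 1.87-fold lower in untreated knockout cells (-0.90 ± 0.23, adjusted p = 0.00220) and 1.62-fold lower in treated ones (-0.69 ± 0.24, adjusted p = 0.0141). The call in treated cells was lost without wild type treated replicate 2 (-0.55, adjusted p = 0.0698) and without knockout treated replicate 3 (-0.46, adjusted p = 0.0823).

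PPL had the highest level of the 6 in CPM and, with EVPL, the smallest spread. Wild type replicates held 218.3, 207.1 and 192.0 CPM without hormone and 233.1, 208.2 and 222.8 CPM with it. In the knockout it was at 97.9, 98.5 and 101.9 CPM untreated and 100.4, 99.4 and 91.9 CPM treated. The highest knockout library was thus far below the lowest wild type library. PPL was 2.07-fold lower in untreated knockout cells (-1.05 ± 0.07, adjusted p = 2.05e-09) and 2.28-fold lower in treated ones (-1.19 ± 0.07, adjusted p = 2.98e-10).

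EVPL, the partner with which periplakin forms heterodimers, showed a smaller difference. Its values in wild type replicates were 81.5, 86.6 and 85.1 CPM without hormone and 98.0, 92.0 and 98.5 CPM with it. The knockout replicates held 49.0, 52.9 and 52.0 CPM untreated and 55.2, 53.3 and 52.1 CPM treated. Neither pair of genotype groups overlapped. EVPL was 1.65-fold lower in untreated knockout cells (-0.72 ± 0.07, adjusted p = 6.51e-08) and 1.80-fold lower in treated ones (-0.85 ± 0.07, adjusted p = 5.84e-09). Without wild type untreated replicate 3, all 6 genes were still lower in untreated knockout cells, from -7.33 (SPRR2D) to -0.72 (EVPL) on the log2 scale, and all 6 passed the test.

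1,25(OH)2D3 moved these genes far less than the genotype did. In wild type cells 1 of 6 passed the test, EVPL, which rose; of all genes tested 24.5% passed and 11.5% rose. The median log2 change of the 6 was -0.32 against 0.00 over all genes (-0.00498). EVPL went from 84.4 ± 2.61 to 96.2 ± 3.58 CPM (SD, n = 3), 1.14-fold, with treated libraries all above untreated ones (0.19 ± 0.07 SE, adjusted p = 0.0462). This call sits at the threshold: it was lost when any of 8 of the 12 libraries was left out (wild type untreated 1, wild type treated 1 and 3, knockout untreated 1 and 3, or any treated knockout library) and in 5 of 9 other settings, with adjusted p between 0.0352 and 0.139 over the libraries left out. PPL, its partner, had a change of 0.11 ± 0.07 (adjusted p = 0.303) with overlapping groups.

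The 3 precursors and the enzyme had lower means after treatment of wild type cells, none past the threshold. SPRR2D went from 7.91 ± 2.10 to 5.24 ± 0.925 CPM (-0.59 ± 0.25 SE, adjusted p = 0.0999), and every treated library was below every untreated one. Without wild type untreated replicate 2 the difference was -0.34 (adjusted p = 0.381), and without replicate 3 of that group -0.70 (adjusted p = 0.0683). Across all genes tested, 19.4% had treated wild type libraries wholly below untreated ones and 19.9% wholly above, and among the 6 genes this held for SPRR2D and EVPL, one each way. SPRR1B went from 14.0 ± 3.71 to 9.24 ± 0.583 CPM (-0.60 ± 0.24, adjusted p = 0.0821). The groups overlapped through wild type untreated replicate 3, and without that library the difference was -0.80 (adjusted p = 0.0110). Leaving out knockout untreated replicate 2 also took SPRR1B past the threshold (adjusted p = 0.0390), and over all 12 libraries left out in turn its difference ranged from -0.80 to -0.47. limma on log2(CPM + 1), which used the deposited CPM without TMM scaling, called SPRR2D lower (-0.49, adjusted p = 0.0393). It did not call EVPL (adjusted p = 0.0584). IVL (-0.37 ± 0.18, adjusted p = 0.139) and TGM1 (-0.26 ± 0.22, adjusted p = 0.419) had overlapping groups.

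In VDR knockout cells none of the 6 passed the test after treatment, where 2.55% of all genes did and 1.64% fell. With edgeR 1 of 6, IVL, had an unadjusted p below 0.05, and DESeq2 and limma each called 0. IVL went from 3.79 ± 0.538 to 2.59 ± 0.678 CPM (-0.55 ± 0.21 SE, adjusted p = 0.141; -0.68 to -0.34 with 1 library left out, the latter without knockout treated replicate 1), with treated libraries all below untreated ones, as for 15.9% of all genes tested. The changes of SPRR1B (-0.24 ± 0.36), TGM1 (-0.05 ± 0.24), PPL (-0.03 ± 0.07) and EVPL (0.06 ± 0.07) were within 1 SE of 0. SPRR2D had 2 counts in each group, too few for a comparison.

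The difference between the responses of the 2 genotypes was tested as an interaction. None of the 6 passed, where 26.3% of all genes did, and 0 of 6 had an unadjusted p below 0.05. DESeq2 and limma also called 0. The interaction was 0.81 ± 1.51 for SPRR2D, 0.36 ± 0.44 for SPRR1B, -0.18 ± 0.27 for IVL, 0.21 ± 0.33 for TGM1, -0.14 ± 0.10 for PPL (adjusted p = 0.341) and -0.13 ± 0.09 for EVPL (adjusted p = 0.344). The rise of EVPL in wild type cells is thus not shown to differ from its change of 0.06 in the knockout. These comparisons share libraries (untreated wild type cells enter both the treatment and the genotype comparison), so their values are not independent of each other.

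**Figure D2:**
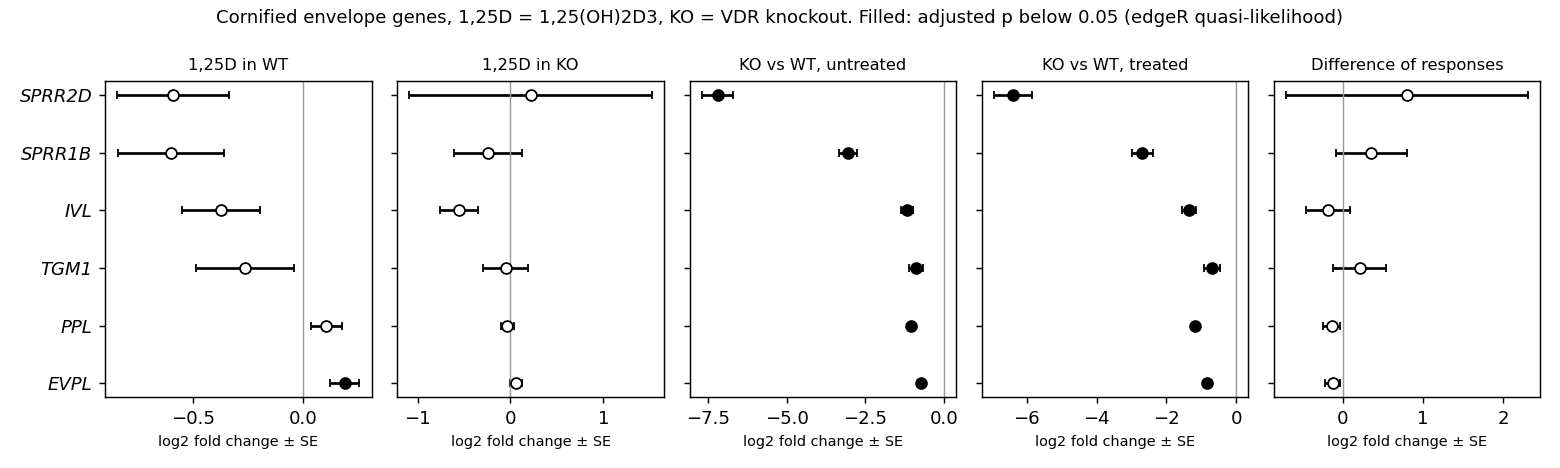
Log2 fold change ± SE of each envelope gene in 5 comparisons (1,25D, 1,25(OH)2D3), with filled points at an adjusted p below 0.05 in edgeR's quasi-likelihood test; the horizontal axes differ between panels. Both genotype panels have 6 filled points left of 0, and among the treatment and interaction panels EVPL in wild type cells, at 0.19, is the single filled point.

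Per kilobase of exon the order of levels differed between the genotypes. In untreated wild type cells PPL (26.8 CPM per kb) and SPRR1B (22.6) led and their libraries overlapped, followed by EVPL (11.2), SPRR2D (7.48), IVL (3.98) and TGM1 (1.45). In treated wild type cells the order was PPL (28.8), SPRR1B (14.9), EVPL (12.8), SPRR2D (4.96), IVL (3.07) and TGM1 (1.21). In untreated knockout cells the plakins led, with PPL at 12.9 and EVPL at 6.83 CPM per kb, then SPRR1B at 2.66, IVL at 1.76 and TGM1 at 0.777, and SPRR2D was last at 0.0379. In treated knockout cells PPL (12.7) and EVPL (7.13) again led SPRR1B (2.29), IVL (1.20), TGM1 (0.747) and SPRR2D (0.0499). SPRR1B thus stood above EVPL in wild type means and below it in the knockout, and SPRR2D moved from above to below IVL and TGM1.

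The SPRR genes are near-identical copies in part, so the origin of their reads was examined. Of the windows of 50 bases in SPRR2D transcripts, 19.3% occur in transcripts of other genes, most of them in SPRR2A, against 4.38% for SPRR1B (all in SPRR1A), 1.95% for EVPL (all in EVPLL) and none for IVL, TGM1 and PPL. No source used here says how shared reads were assigned, so single SPRR values are uncertain to that extent. The other family members with counts were also lower in the knockout. SPRR1A had 27, 22 and 8 counts in untreated wild type libraries and 1 in each untreated knockout library, a ratio of 25.1 (exact 95% interval 8.18 to 125.6). In treated cells it had 11, 12 and 17 counts in wild type and 1, 2 and 0 in the knockout, a ratio of 13.1 (4.17 to 66.1). SPRR2A averaged 4.48 CPM in untreated wild type cells against 0.233 CPM in the knockout, and 2.51 against 0.0547 CPM after treatment. The sum over 5 SPRR genes does not depend on how reads were split among those 5. Windows of SPRR2D occur in 6 other genes, and reads dropped or assigned outside the 5 would be missing from the sum. It was 30.9, 34.5 and 20.7 CPM in wild type replicates without hormone and 17.5, 17.0 and 21.8 CPM with it. In the knockout that sum was 1.27 to 2.58 CPM. The low copy EVPLL went the other way from EVPL, from 0.752 CPM in wild type to 3.35 CPM in untreated knockout cells (2.15 ± 0.35, adjusted p = 3.45e-05).

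PPL and EVPL lie partly over genes on the opposite strand, PPL with SEC14L5 and EVPL with CDK3 and the readthrough gene TEN1-CDK3, but shared 0 exon bases with any of them. Of these, TEN1-CDK3 was the one with counts. It rose with 1,25(OH)2D3 in wild type cells, from 40.3 to 53.8 CPM (0.42 ± 0.11, adjusted p = 0.00952), as EVPL did, and its difference between untreated genotypes, 0.12 ± 0.11 (adjusted p = 0.315), did not pass while EVPL fell. Whether its reads add to EVPL was not tested.

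SPRR2D, SPRR1B and IVL lie in the epidermal differentiation complex, and its neighbours did not all fall with them. In a 1.65 Mb stretch of chromosome 1 from S100A10 to S100A1, chosen after values were seen, 18 genes were tested. The 18 include SPRR2D, SPRR1B and IVL themselves, which were lower in both genotype comparisons. In untreated knockout cells 6 of the 18 were higher and 11 lower, where 35.5% and 34.2% of all genes were. In treated ones 5 were higher and 11 lower, where 38.4% and 37.4% were. All 4 SPRR genes tested fell in both comparisons. Of 10 S100A genes, calcium-binding proteins some of which are envelope components, 3 rose and 6 fell in untreated knockout cells. FLG, which encodes profilaggrin, rose from 2.77 to 8.06 CPM (1.54 ± 0.19, adjusted p = 1.40e-06). FLG-AS1, which overlaps FLG on the other strand, rose from 10.2 to 60.7 CPM (2.57 ± 0.11, adjusted p = 8.99e-12), and reads of the pair cannot be told apart if the counting did not use strand. After treatment of wild type cells 1 of the 18 rose, where 11.5% of all genes did, and 2 fell, against 1914 of 14676 genes. None of those called was an SPRR gene or IVL.

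**Figure D3:**
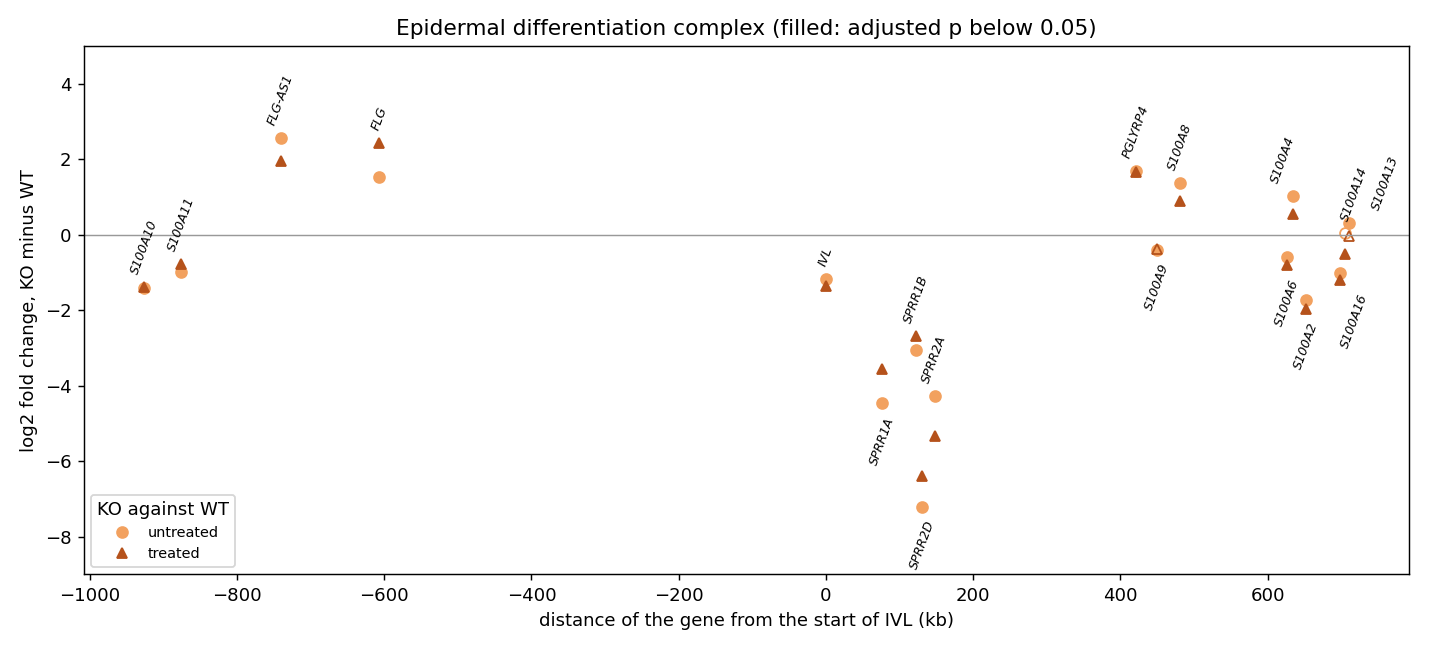
Log2 difference between VDR knockout (KO) and wild type (WT) cells for 18 genes of the epidermal differentiation complex, placed by distance in kilobases from the start of IVL, in untreated (circles) and treated (triangles) cells; filled symbols have an adjusted p below 0.05. IVL and the 4 SPRR genes lie below 0 in both comparisons, while FLG, FLG-AS1 and PGLYRP4 lie above it.

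Genes that work with these 6 were grouped by role, and shares over all genes tested are given beside their counts. Of 10 other envelope precursors tested, 5 rose and 5 fell in untreated knockout cells (35.5% and 34.2% of all genes), with a median of -0.33. S100A10 fell by 1.40 on the log2 scale (SE 0.11), while CSTA, the protease inhibitor cystatin A, rose by 1.62 (SE 0.14). With 1,25(OH)2D3 in wild type cells 3 of the 10 fell, against 1914 of all 14676 genes, and none rose, among them S100A11 (-0.48 ± 0.09, adjusted p = 0.00183) and SCEL, sciellin (-0.82 ± 0.16, adjusted p = 0.00223). That count was 6 without wild type untreated replicate 3. Of the other transglutaminases and modulators, 2 modulators were tested, CSTB and RARRES3, and no transglutaminase. CSTB, cystatin B, was lower in untreated knockout cells (-0.35 ± 0.12, adjusted p = 0.0181), where 34.2% of all genes were, and RARRES3 did not pass. The CSTB call was lost without wild type untreated replicate 1 or 2 or knockout untreated replicate 2, and in 4 of the other settings.

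Of 11 plakins and desmosomal partners of PPL and EVPL tested, 8 fell and 1 rose in untreated knockout cells (34.2% and 35.5% of all genes), with a median of -0.81, and 9 fell and 1 rose in treated ones (37.4% and 38.4%), with a median of -0.95. PLEC, the plakin plectin, went from 641.8 to 127.8 CPM (-2.33 ± 0.11, adjusted p = 2.50e-11), and PKP3, the desmosomal plaque protein plakophilin 3, differed by -1.65 ± 0.09 (adjusted p = 1.75e-10). With 1,25(OH)2D3 in wild type cells 3 of the 11 rose, where 11.5% of all genes did, and none fell. Among them DSP, desmoplakin, rose from 80.8 to 159.4 CPM (0.98 ± 0.17, adjusted p = 0.00228) and PLEC from 641.8 to 882.4 CPM (0.46 ± 0.10, adjusted p = 0.00418). Wild type untreated replicate 3 was the lowest of its group for both. In replicates 1 to 3 of that group DSP was at 92.1, 92.0 and 58.2 CPM and PLEC at 715.6, 697.4 and 512.5 CPM.

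Of 8 enzymes of the lipid bound to the envelope, 6 rose and 1 fell in untreated knockout cells (35.5% and 34.2% of all genes), with a median of 0.79. UGCG, which makes glucosylceramide, rose by 0.88 (SE 0.08). With 1,25(OH)2D3 in wild type cells SMPD1, a sphingomyelinase, rose (0.71 ± 0.19, adjusted p = 0.0125) and CERS3, a ceramide synthase, fell (-0.45 ± 0.14, adjusted p = 0.0287). The CERS3 call was lost without wild type untreated replicate 3 or wild type treated replicate 1 or 3, and the count of lipid enzymes that rose was 2 without wild type untreated replicate 2 and 0 without wild type treated replicate 3.

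Of 13 proteases, deiminases and inhibitors, 6 rose and 5 fell in untreated knockout cells (35.5% and 34.2% of all genes), with a median of 0.16, and 4 rose and 6 fell in treated ones (38.4% and 37.4%), with a median of -0.17. PADI1, a peptidylarginine deiminase, fell by 2.26 on the log2 scale (SE 0.25), and PRSS8, prostasin, rose by 0.93 (SE 0.12). With 1,25(OH)2D3 in wild type cells 5 of the 13 rose, where 11.5% of all genes did, among them KLK5, a kallikrein of desquamation (0.68 ± 0.09, adjusted p = 0.000158), and CTSD, cathepsin D (0.78 ± 0.13, adjusted p = 0.000920). None of the 13 fell, against 1 without wild type untreated replicate 3 or knockout untreated replicate 2. In wild type untreated replicates 1 to 3 KLK5 was at 80.8, 81.5 and 60.6 CPM and CTSD at 367.4, 391.1 and 252.4 CPM, both lowest in replicate 3.

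Of 21 regulators of keratinocyte differentiation, most of them transcription factors, 11 rose and 6 fell in untreated knockout cells (35.5% and 34.2% of all genes), with a median of 0.39. GRHL3, a grainyhead factor that acts on envelope genes including TGM1, rose by 3.61 (SE 0.15, adjusted p = 8.42e-12), while FOSL1, an AP-1 subunit, fell by 2.45 (SE 0.11, adjusted p = 3.78e-11). With 1,25(OH)2D3 in wild type cells 2 rose, where 11.5% of all genes did, and 6 fell, against 1914 of 14676 genes. JUNB, another AP-1 subunit, rose (0.74 ± 0.11, adjusted p = 0.000260) and GATA3 fell (-0.48 ± 0.07, adjusted p = 0.000138). Of 5 keratins, 3 fell in untreated knockout cells (34.2% of all genes), among them the basal keratins KRT14 (-1.64 ± 0.10) and KRT5 (-1.16 ± 0.11). In treated knockout cells all 5 fell (37.4% of all genes), with a median of -1.59. None passed with treatment in wild type cells (24.5% of all genes), against 1 lower without wild type untreated replicate 3.

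**Figure D4:**
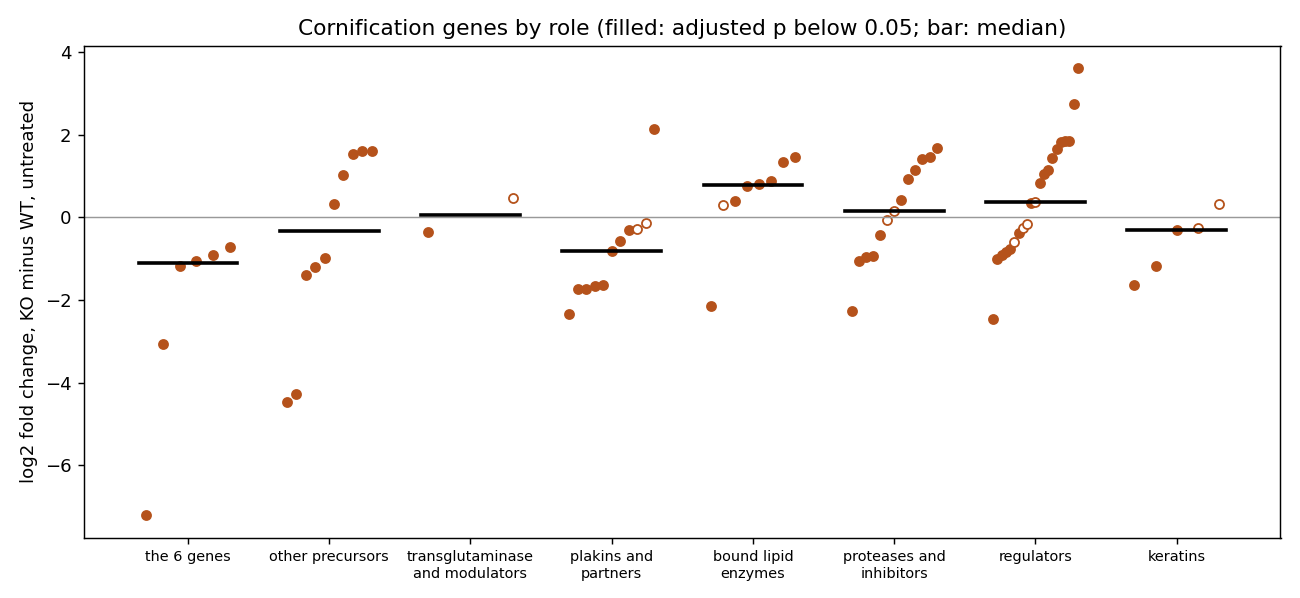
Log2 difference between untreated VDR knockout (KO) and wild type (WT) cells for the 6 envelope genes and for 7 lists of genes of related role; each point is a gene, filled at an adjusted p below 0.05, and bars are medians. The 6 envelope genes all lie below 0, with a median of -1.11. The lists of other precursors, transglutaminase modulators, plakins and partners, lipid enzymes, proteases and regulators have genes on both sides of it, and the filled keratins all lie below it.

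The genes whose levels were most like each member over the 12 libraries were found by Pearson's r of log2 CPM, as a description, since the libraries share 1 split by genotype and r is high for any gene that differs by genotype. For SPRR2D they were FARSA, ANKRD29 and RRP9 (r = 0.992 for each). For SPRR1B they were SPRED2 (0.984), UBE2Z (0.984) and TBX1 (0.983). IVL was most like RPL37AP1 (0.983), ASNS (0.973) and LYSMD2 (0.970), and TGM1 like HRK (0.968), TMEM105 (0.934) and CAPG (0.929). PPL was most like FAM20C (0.997), SCAF1 (0.996) and ENDOD1 (0.996), and EVPL like SRCAP (0.995), PHF2 (0.992) and ABHD15 (0.992). SPRR2D and TGM1 could not be named for another member, since their means were below the 5 CPM asked of the genes compared. None of the other members was among the 3 genes most like another.

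In the authors' deposited tables of gene ontology terms, all 6 genes are listed among those lower in the knockout, untreated and treated, and none in the tables of treatment. The tables list only genes within the terms they report, and none at hand covers genes higher in treated knockout cells. Absence from the tables of treatment therefore does not show that the authors found no change. For untreated cells, the authors' deposited table lists keratinization with 34 of 3405 lower genes, against 58 of 10967 background genes (the authors' adjusted p = 0.00139), the 6 among them. For treated cells, the authors' deposited table lists cornification with 41 of 4413 lower genes, against 52 of 10964 background genes (the authors' adjusted p = 7.49e-05). It lists the cornified envelope with 19 of 4616, against 29 of 11440 (the authors' adjusted p = 0.0547). Both again hold all 6. These tables come from the same libraries and are no independent support.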

How the data were processed

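RNA-seq libraries of wild type and VDR knockout HaCaT cells, 3 per group in 4 groups, were analysed from the deposited gene counts, which are whole read counts per gene, not normalised by the authors. The authors also deposited CPM values, which equal counts per 1000000 of the library total within rounding (largest difference 0.00500). They were used for that check and as the input of the limma alternative. The authors' deposited term tables give p-values, adjusted p-values and numbers of genes, used only as described there. The submitters' processing notes name BWA 0.5.9 and the build mm9, a mouse build, while the gene IDs are human, so the mapping build is uncertain and no coordinates were taken from the authors' files. The sources used here do not name the counter, the annotation or the strand setting. Genes were placed by ID on GENCODE 29 (GRCh38), where 15524 IDs matched and 747 did not, and promoter sequences are from RefSeq (GRCh38.p14).

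Counts were scaled by TMM (factors 0.950 to 1.06) and tested with edgeR 4.0.16 (filterByExpr, robust quasi-likelihood, R 4.3.3) over all 12 libraries with 4 group means, which left 1595 genes out. The script was tested on simulated data. CPM in the text uses TMM-scaled library sizes, except in the limma alternative, and CPM per kb divides by the union of annotated exons. The values per kb take reads as counted over exons, which no source used here states. Alternatives were size factors of the DESeq2 kind, scaling by library totals, low counts left unfiltered or filtered more strictly, DESeq2 1.42.0, limma 3.58.1 on log2(CPM + 1), an adjusted p below 0.01, the compared groups alone, a replicate block, and leaving out each library. The genes, lists and tests were chosen with earlier results of these data known. Named genes are the 6, CYP24A1 and VDR as checks, the 2 with the smallest adjusted p per list among those called with treatment in wild type cells and by genotype in untreated cells, the 3 most like each member (mean of at least 5 CPM), and paralogs, overlapping genes and neighbours where the origin of reads is at issue. For the lipid enzymes, 1 gene that this rule names is not reported here.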

Additional observations from a re-analysis of the deposited data

Results flagged for a closer look

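No envelope gene differed in its response between the genotypes by the interaction test. Among the genes named from the lists of related role, 11 did (response in the knockout minus response in wild type, log2, edgeR's quasi-likelihood test), where 26.3% of all genes tested did. Of these 11, 9 had been named for their small adjusted p with treatment in wild type cells, which is part of the interaction. The count is therefore no comparison with the 6 envelope genes or with the share over all genes. Of the plakins, DSP had an interaction of -1.50 ± 0.26 (SE, adjusted p = 0.00204) and PLEC of -0.42 ± 0.15 (adjusted p = 0.0439). SCEL, an envelope precursor, had one of 1.09 ± 0.21 (adjusted p = 0.00217). Of the lipid enzymes, SMPD1 had -1.02 ± 0.27 (adjusted p = 0.0105) and CERS3 0.60 ± 0.19 (adjusted p = 0.0328). Of the proteases, KLK5 had -0.94 ± 0.14 (adjusted p = 0.000252), CTSD -1.18 ± 0.19 (adjusted p = 0.000608) and PRSS8 -0.80 ± 0.17 (adjusted p = 0.00306). Of the regulators, JUNB had -1.33 ± 0.16 (adjusted p = 6.38e-05) and GATA3 0.53 ± 0.09 (adjusted p = 0.000858). KRT14 had -0.63 ± 0.14 (adjusted p = 0.00416). Of the neighbouring and overlapping genes, FLG had 0.90 ± 0.27 (adjusted p = 0.0219), FLG-AS1 -0.61 ± 0.14 (adjusted p = 0.00535) and TEN1-CDK3 -0.67 ± 0.15 (adjusted p = 0.00396). Of the check genes, CYP24A1 had -5.60 ± 0.21 (adjusted p = 1.66e-09) and VDR 0.64 ± 0.10 (adjusted p = 0.000371).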

How the results depend on the processing

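All 6 genes kept their lower level and their call in untreated knockout cells under each alternative and with each library left out, and in treated cells all did except TGM1, which was lost without wild type treated replicate 2, without knockout treated replicate 3 and at an adjusted p below 0.01. Library size alone moved the median of all genes to 0.13 for both genotype comparisons (0.01 and 0.02 with TMM), and relative to it the 6 ranged from -7.23 to -0.73 in untreated cells. In wild type cells the number called after treatment, 1 as reported, was 0 with library size alone, with the replicate block, with the compared groups alone and at an adjusted p below 0.01, and 0 to 2 with libraries left out. Signs that changed, all below the threshold, were in fits with 1 library left out: in the knockout with treatment SPRR2D ranged from -2.49 to 2.67, SPRR1B from -0.53 to 0.10, TGM1 from -0.36 to 0.18 and PPL from -0.057 to 0.0069, and in the interaction SPRR2D ranged from -1.90 to 3.25, IVL from -0.31 to 0.026 and TGM1 from -0.10 to 0.44. Other uncalled changes kept their sign but moved with 1 library left out: with treatment in wild type cells TGM1 ranged from -0.41 to -0.13 and PPL from 0.063 to 0.16, in the knockout EVPL from 0.029 to 0.083, and the interaction of SPRR1B from 0.065 to 0.70. Same-numbered replicates did not deviate together (r from -0.175 to 0.121 across genes, against -0.123 to 0.141 for other numbers), so the numbers were not taken as pairs; with the replicate block EVPL in wild type cells had an adjusted p of 0.0737 and no other call on the 6 changed. limma on log2(CPM + 1), a scale that compresses low values, put SPRR2D in the knockout at -3.02 without and -2.51 with hormone.

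Of all genes, treatment called 3602 in wild type cells, 2218 with the compared groups alone, 1810 at 0.01 and 2112 to 3763 with libraries left out. In the knockout it called 374, 143 with the block, 907 with DESeq2, 1776 with the compared groups alone, 36 at 0.01 and 9 to 2365 with libraries left out. The 2365 came without wild type untreated replicate 3. With library size alone 98 rose and 392 fell in the knockout, against 134 and 240. The interaction called 3857, and 1921 at 0.01. The causes were not tested. Depth limits SPRR2D most, at 0 to 2 counts per knockout library.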

Other observations

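The keratins, which envoplakin and periplakin tie to the envelope, had the highest share of calls among the 7 lists when knockout cells were treated: 3 of 5 fell with 1,25(OH)2D3, where 1.64% of all genes tested fell. KRT14 went from 107.2 ± 3.22 to 58.5 ± 2.18 CPM (SD, n = 3; log2 change -0.87 ± 0.10 SE, edgeR adjusted p = 0.00169) and KRT5 from 23.7 ± 3.23 to 17.0 ± 2.34 CPM (-0.48 ± 0.12, adjusted p = 0.0460), with treated libraries of both genes below untreated ones. The third was KRT15. The count was 1 without knockout untreated replicate 1 and without knockout treated replicate 2 or 3, and 3 with DESeq2 and with limma. In treated wild type cells KRT14 was at 283.0 ± 24.8 CPM against 334.3 ± 54.8 CPM untreated (-0.24 ± 0.10, adjusted p = 0.0870).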
